A study of Rattus norvegicus with 8 samples.

Results

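The interleukins and tumour necrosis factor (TNF), together with their receptors, comprised 72 genes on the array, of 14506 genes that carried only 1 symbol. Members were chosen by symbol alone: Il followed by a number, receptors included, plus Tnf, Tnfrsf1a, Tnfrsf1b, Lif, Lifr, Osm and Osmr. All 72 were found in RefSeq under the same symbol, and each was measured by 1 probe set. They comprised 36 ligands or antagonists and 36 receptors or binding proteins. RNA came from the dorsal spinal cord on the injured side of adult male Wistar rats, 14 days after spinal nerve transection (SNT). The HDACi group (4 arrays) had received MS-275, which inhibits histone deacetylases of class I, through an intrathecal osmotic pump at 30 nmol/d, and the vehicle group (4 arrays) had received the solvent, DMSO in saline solution. Whether the pump was started before or after the injury is not given for these arrays in the sources used here. In the study's nerve injury experiments, pumps were placed before the injury, except in the test of established hypersensitivity, where they were connected after it. Every animal was injured, so the arrays compared drug with solvent in injured cord and held no uninjured reference. The animals' genotype is not otherwise labelled, and their exact age is not given in the sources used here.

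Interleukins and TNF are secreted signals, most of which act over short distances through paired receptor chains at the cell surface. IL-1 family ligands assemble a ligand-binding chain with an accessory chain and signal through MyD88 and IRAK kinases to NF-kB. TNF reaches NF-kB and MAP kinases through its type 1 and type 2 receptors, and IL-6, LIF and oncostatin M signal through the shared chain gp130, encoded by Il6st, to JAK kinases and STAT3. In the spinal dorsal horn after nerve injury, microglia and astrocytes are known sources of IL-1β, TNF and IL-6, which can increase the excitability of pain-transmitting neurons. The question these arrays address for the 72 genes is whether their mRNA differed when class I histone deacetylases were inhibited in injured cord.

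No member differed between the groups after Benjamini-Hochberg adjustment over all 14506 genes by limma, where the share called was 0% and the smallest adjusted p of any gene was 0.61. In the study's own analysis of all probe sets, a mitochondrial cysteine transfer RNA, higher with the drug, passed correction at 0.05. At an unadjusted p under 0.05, limma called 6 of 72 members (8.33%), against 1124 of 14506 genes (7.75%), so the share among the members was near the background. Of these, 3 stood higher in the HDACi group (Il1r1, Osmr and Il2rg; 404 of all genes, 2.79%) and 3 lower (Il36g, Il18r1 and Il17f; 720 of all genes, 4.96%). A further quantile normalization gave 6 higher and 2 lower, and centring each array on its median gave 6 higher and 3 lower. One member (Il1r1) had an unadjusted p under 0.01, a threshold passed by 1.46% of all genes. The difference, HDACi minus vehicle on the log2 scale, was above 0 for 39 members and below 0 for 33. Its median was 0.0065 over the members and -0.01 over all genes, and it ran from -0.19 for Il6 to 0.55 for Il1r1. For 46 of the 72 members the difference was smaller than 0.1 in size, against 11535 of all 14506 genes. The 95% confidence interval lay within 1.5-fold in either direction for 70 members, the exceptions being Il1r1 and Il16, and for 14227 of all genes.

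**Figure D1:**
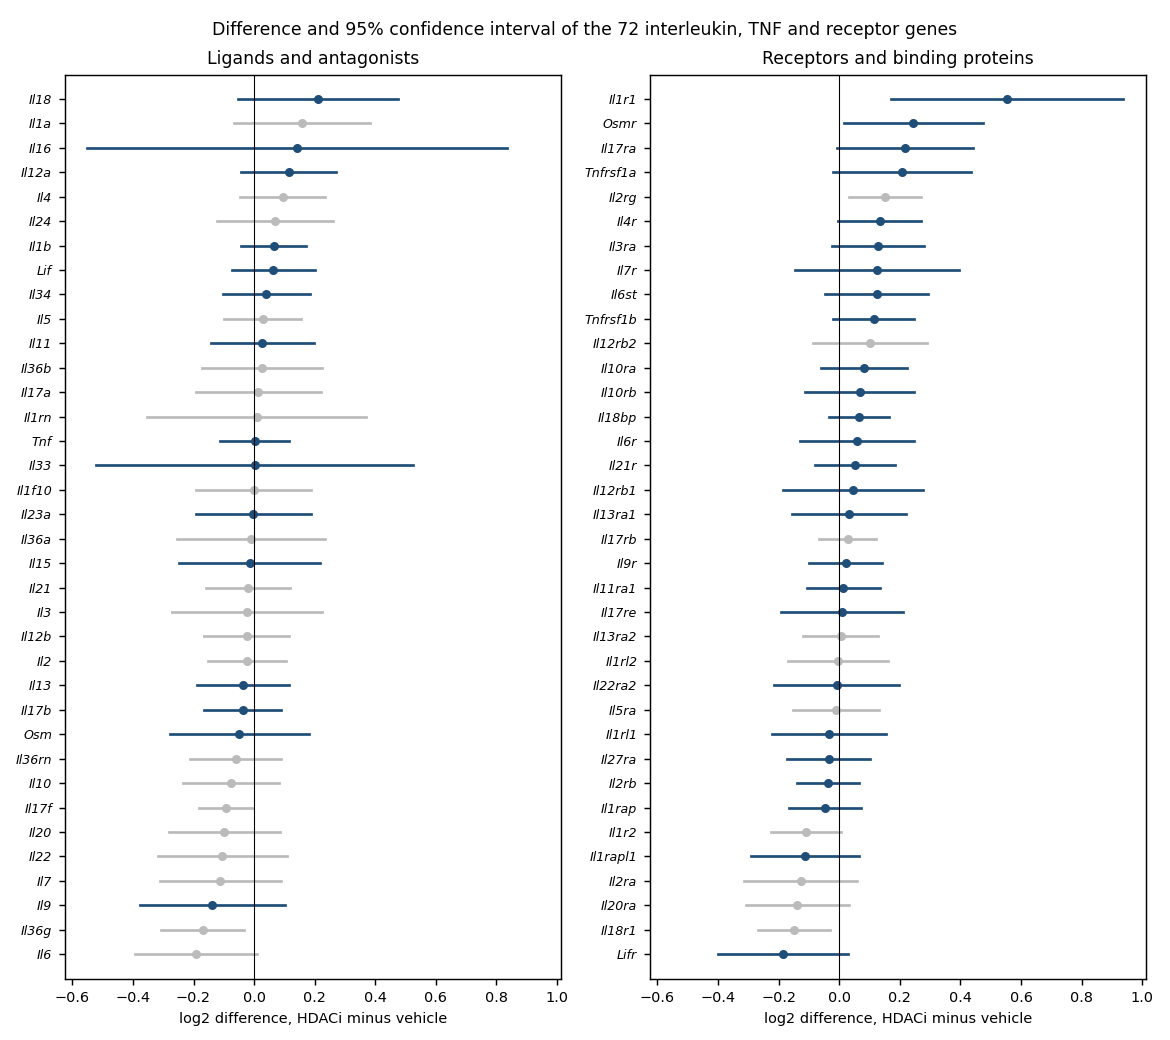
Differences, HDACi minus vehicle on the log2 scale (x axis), for the 36 ligands and antagonists (left) and the 36 receptors and binding proteins (right), each with its 95% confidence interval from limma (4 arrays a group). Dark points lie above, and grey points at or below, the 95th percentile of olfactory receptor genes. Of the 72 intervals, 6 leave out 0, and Il1r1 at 0.55 lies farthest from it.

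Many cytokine mRNAs gave low signals in this tissue, and the level sets what a difference can be read as. Olfactory receptor genes, which the cord is not known to use, served as a reference for dim probes. Their 1105 mean signals had a median of 5.22 and a 95th percentile of 6.93 on the log2 scale. Above that percentile lay 41 of the 72 members (56.94%), compared with 76.09% of all genes, and 31 members lay at or below it. The median mean signal of the members was 7.16, against 8.60 over all genes, and 12 members exceeded the latter. Such a reference is no detection call, and the signals of probe sets for different genes cannot be set against each other as amounts of mRNA. By kind, 26 of 36 receptors but 15 of 36 ligands lay above the reference. Of the 41 members above it, 28 had a difference above 0, with a median of 0.04, where 43.9% of all genes above the reference did. Il1r1 and Osmr, 2 of the 41, had an unadjusted p under 0.05 by limma, both higher, against 8.53% of all genes above the reference in either direction and 3.19% higher. Il2rg, Il36g, Il18r1 and Il17f were all below the reference.

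**Figure D2:**
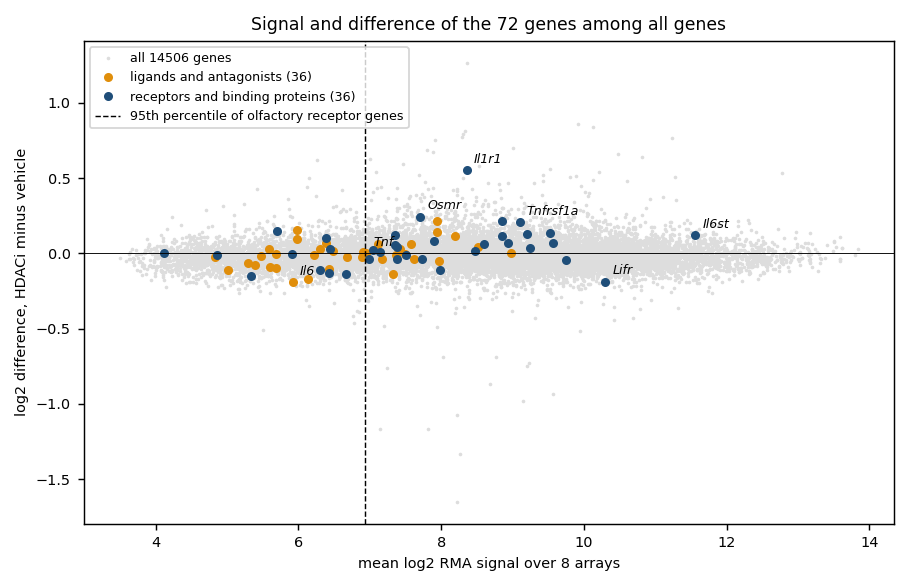
Mean log2 RMA signal over 8 arrays (x axis) against the log2 difference, HDACi minus vehicle (y axis), for all 14506 genes (grey), ligands and antagonists (orange) and receptors and binding proteins (blue). The dashed line marks the 95th percentile of olfactory receptor genes at 6.93; Il1r1 at 0.55 is the member farthest from the zero line, and Tnf sits beside the dashed line.

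Promoter windows of 4 members are shown, for the 2 genes that stood higher above the reference (Il1r1 and Osmr) and for the best-known ligands of the dorsal horn (Il1b and Tnf), because the drug acts on histones and CpG-rich and CpG-poor promoters differ in their chromatin. Each runs from 250 bases before to 50 bases after the gene's start in the RefSeq annotation of the GRCr8 assembly, 5′ to 3′ on the gene's strand, with every CpG in capitals. The Il1r1 window is chr9:50034133-50034432 (plus strand), the Osmr window chr2:57688512-57688811 (minus strand), the Il1b window chr3:137036532-137036831 (minus strand) and the Tnf window chr20:3626435-3626734 (plus strand).
Il1r1: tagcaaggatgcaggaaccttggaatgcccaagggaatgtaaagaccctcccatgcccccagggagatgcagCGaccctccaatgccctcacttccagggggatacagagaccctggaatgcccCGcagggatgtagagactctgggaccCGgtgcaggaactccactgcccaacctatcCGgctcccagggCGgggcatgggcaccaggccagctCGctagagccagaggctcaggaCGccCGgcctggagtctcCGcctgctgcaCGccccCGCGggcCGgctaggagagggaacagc
Osmr: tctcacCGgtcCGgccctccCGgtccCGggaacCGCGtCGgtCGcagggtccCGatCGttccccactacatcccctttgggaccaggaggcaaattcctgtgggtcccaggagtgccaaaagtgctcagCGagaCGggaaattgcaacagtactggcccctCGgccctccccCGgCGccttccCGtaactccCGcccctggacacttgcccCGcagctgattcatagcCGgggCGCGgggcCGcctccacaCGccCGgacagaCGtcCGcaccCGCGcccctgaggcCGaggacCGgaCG
Il1b: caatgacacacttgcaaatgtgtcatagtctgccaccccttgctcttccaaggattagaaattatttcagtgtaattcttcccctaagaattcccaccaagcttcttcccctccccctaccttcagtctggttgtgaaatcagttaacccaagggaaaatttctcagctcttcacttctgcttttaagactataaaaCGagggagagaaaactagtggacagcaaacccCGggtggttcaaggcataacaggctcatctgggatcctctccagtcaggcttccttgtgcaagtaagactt
Tnf: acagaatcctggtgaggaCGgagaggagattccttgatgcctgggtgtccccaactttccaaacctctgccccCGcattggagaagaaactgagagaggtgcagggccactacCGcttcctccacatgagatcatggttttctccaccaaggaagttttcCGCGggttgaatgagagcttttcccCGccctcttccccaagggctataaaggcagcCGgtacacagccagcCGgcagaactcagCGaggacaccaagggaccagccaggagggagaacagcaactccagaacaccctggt
The windows held 13 CpGs (Il1r1), 31 (Osmr), 2 (Il1b) and 9 (Tnf). RefSeq windows were matched for 55 of the 72 members, with a median of 5 CpGs, and the median over 33469 promoters of the table was 7. Receptors (28 matched) had a median of 10.5 CpGs and ligands (27 matched) of 4. Among the receptors, the counts ran from 1 (Il7r, Il18bp and Il1rapl1) to 36 (Il1rap).

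Motifs were searched on both strands of the same windows as plain letters, none of them a measured binding site. The NF-kB motif was found in the windows of 4 of 55 members (Il6, Il36a, Il12rb2 and Il27ra) and in 1.11% of all promoters. The AP-1 letters TGANTCA occurred in 8 members (14.5%), Osmr, Il18, Il1a and Tnfrsf1b among them, and in 7.33% of all promoters. The STAT letters TTCNNNGAA occurred in 6 members (10.9%) and 8.87% of all promoters, and the TATA box letters TATAAA in 10 members (18.2%) and 14.2%. In the windows printed above, the AP-1 letters stood at bases 218 to 224 of Osmr, and TATA box letters at bases 191 to 196 of Il1b and 205 to 210 of Tnf, counted from the first base shown. The Il1r1 window held none of the 4 motifs. All 6 members with an unadjusted p under 0.05 were among the 55 matched.

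Of the 8 IL-1 family receptors and binding proteins, Il1r1 was the one that stood higher at an unadjusted p under 0.05. Il1r1 encodes the type 1 receptor through which both IL-1α and IL-1β signal. Its log2 signals in the HDACi group were 8.16, 9.06, 8.68 and 8.64 (replicates 1 to 4), and in the vehicle group 7.85, 8.31, 8.15 and 8.02. For Il1r1, 3 of the 4 HDACi arrays lay above every vehicle array, and HDACi replicate 1 lay among the vehicle arrays. The mean was 8.64 ± 0.37 (SD, n = 4) against 8.08 ± 0.20 (SD, n = 4). By limma the difference was 0.55 (SE 0.17, 95% confidence interval 0.17 to 0.94), or 1.47-fold, with an unadjusted p of 0.00956 and an adjusted p of 0.61, and the exact two-sided permutation test gave p = 0.0571. With each array left out in turn the difference ran from 0.41 (without HDACi replicate 2) to 0.71 (without HDACi replicate 1), and the unadjusted limma p was at most 0.0298. In these arrays of whole tissue, a difference in the number of cells of a type and a difference in RNA per cell cannot be told apart.

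The remaining IL-1 receptors gave small differences, mostly below 0: 6 of the 8 genes in the group lay below 0, and the group's median was -0.04. Il1rap, the accessory chain shared by IL-1, IL-33 and IL-36 receptors, had signals of 9.65, 9.76, 9.69 and 9.80 in the HDACi group and 9.85, 9.80, 9.76 and 9.68 in the vehicle group. The ranges overlapped, with a difference of -0.05 (95% confidence interval -0.17 to 0.07). Il1r2, a decoy receptor that binds IL-1 without signalling, gave 6.27, 6.17, 6.33 and 6.24 against 6.35, 6.28, 6.44 and 6.38. Of its HDACi arrays 3 lay below all vehicle arrays, but the signal was below the reference, and the difference of -0.11 had an unadjusted limma p of 0.0613. Il18r1, the ligand-binding chain of the IL-18 receptor, was likewise dim, with 5.17, 5.31, 5.22 and 5.34 against 5.39, 5.33, 5.47 and 5.45. Its difference was -0.15 (SE 0.05), with an unadjusted limma p of 0.0185 and an adjusted p of 0.61, and leaving out HDACi replicate 1, HDACi replicate 3 or vehicle replicate 3 raised the unadjusted p to 0.0549, 0.0509 and 0.0543. Again 3 of 4 HDACi arrays lay below all vehicle arrays. Il1rl1, the IL-33 receptor ST2, differed by -0.03 (95% confidence interval -0.22 to 0.16). Il18bp, a soluble protein that neutralises IL-18 and was named after its values were seen, differed by 0.07 (95% confidence interval -0.03 to 0.17).

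The IL-1 family ligands held no member that was higher at an unadjusted p under 0.05, and 3 of the 10 (Il1b, Il18 and Il33) lay above the reference. Il1b, the inducible IL-1 cytokine of activated microglia, had signals of 7.13, 7.25, 7.11 and 7.11 in the HDACi group and 7.10, 7.13, 7.02 and 7.10 in the vehicle group. All 8 arrays lay close together and just above the reference, and the difference was 0.06 (95% confidence interval -0.04 to 0.17). Il1a, which encodes IL-1α, gave 5.80, 6.08, 6.09 and 6.27 against 5.81, 5.83, 5.87 and 6.09. That is a dim signal with overlapping groups, and the difference was 0.16 (95% confidence interval -0.07 to 0.38). Il1rn encodes the IL-1 receptor antagonist, which occupies Il1r1 without signalling, and gave 6.85, 6.95, 6.80 and 7.06 against 7.20, 6.93, 7.11 and 6.37. Vehicle replicate 4 was the lowest array for Il1rn and vehicle replicate 1 the highest, and the group means, 6.91 and 6.90, differed by 0.0083 (95% confidence interval -0.35 to 0.37). Without vehicle replicate 4 the difference was -0.17.

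Il18, the IL-1 family cytokine processed by caspase-1, had signals of 8.08, 8.15, 7.79 and 8.17 in the HDACi group and 8.06, 7.89, 7.86 and 7.54 in the vehicle group. For Il18, 3 HDACi arrays exceeded all vehicle arrays, the fourth lay within the vehicle range, and the difference was 0.21 (95% confidence interval -0.05 to 0.48, unadjusted limma p 0.103). Il36g was dim, with 5.97, 6.05, 6.15 and 5.99 against 6.19, 6.09, 6.29 and 6.29. For this epithelial IL-1 family cytokine the difference was -0.17 (SE 0.06), with an unadjusted limma p of 0.0196 and an adjusted p of 0.61. The unadjusted p was between 0.0522 and 0.0567 when HDACi replicate 1, HDACi replicate 4, vehicle replicate 3 or vehicle replicate 4 was left out. The other IL-36 ligands and Il1f10 differed by between -0.06 (Il36rn, an antagonist) and 0.03 (Il36b), all below the reference.

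Il33, an alarmin stored in cell nuclei, spread far more between arrays than between groups. Its signals were 8.78, 9.49, 8.89 and 8.74 in the HDACi group and 9.16, 9.52, 8.49 and 8.73 in the vehicle group. Replicate 2 was the highest array of each group, and the means, 8.98 ± 0.35 and 8.97 ± 0.45 (SD, n = 4 each), differed by 0.0014 (95% confidence interval -0.52 to 0.52). Il16, a chemoattractant that binds CD4 and was named after its values were seen, showed a like spread, with 7.51, 8.77, 8.20 and 7.59 against 8.10, 8.46, 7.45 and 7.49. Its difference was 0.14 (95% confidence interval -0.55 to 0.84), the widest interval of the 72 members. The mean signal of 6 leptomeningeal fibroblast markers was also highest in replicate 2 of each group, at 8.62, 9.89, 9.07 and 8.92 in the HDACi group and 9.23, 9.55, 8.67 and 8.93 in the vehicle group. All 6 of these leptomeningeal markers lay above the reference. The mean of 5 sensory neuron and root markers was likewise highest in replicate 2 of each group. It was 8.18, 9.26, 8.81 and 8.03 in the HDACi group and 9.52, 9.80, 8.16 and 8.90 in the vehicle group. The mean of 6 endothelial and mural markers ran from 10.02 to 10.29 in the HDACi group and from 10.06 to 10.09 in the vehicle group, HDACi replicate 2 again being the highest. Il1r1 had its highest value on the same array, and with both replicates numbered 2 left out its difference was 0.49 (unadjusted limma p 0.00954), that of Il33 0.01 and that of Il16 0.08. The part of meningeal, vascular, sensory neuron and root RNA in these values was not tested.

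**Figure D3:**
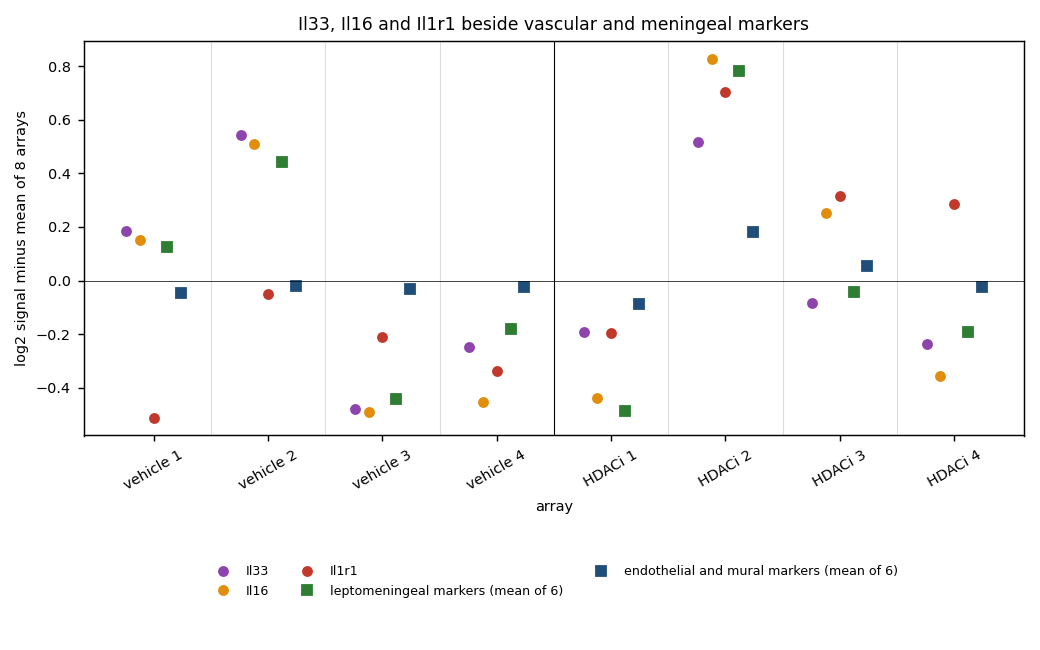
Deviation of the log2 signal from its mean over 8 arrays (y axis) on each vehicle and HDACi array (x axis, numbered by replicate) for Il33, Il16 and Il1r1 (circles) and for the mean of 6 leptomeningeal and of 6 endothelial and mural marker genes (squares). Il33, Il16 and the leptomeningeal markers are all highest on the replicates numbered 2 of both groups, whereas Il1r1 is above its mean on HDACi replicates 2, 3 and 4 and below it on every vehicle array.

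TNF itself did not separate the groups, and its 2 receptors had small positive differences that were not called. Tnf had signals of 6.91, 6.89, 6.99 and 7.03 in the HDACi group and 6.92, 6.89, 7.02 and 6.99 in the vehicle group. These values sit at the reference for dim probes, with a difference of 0.0019 (95% confidence interval -0.11 to 0.11). Tnfrsf1a, the type 1 TNF receptor with a death domain that most cells carry, gave 8.99, 9.39, 9.15 and 9.27 against 9.14, 9.13, 8.81 and 8.91. Here 3 of the 4 HDACi arrays lay above every vehicle array, and the difference was 0.21 (SE 0.10, 95% confidence interval -0.02 to 0.44), with an unadjusted limma p of 0.0711. Tnfrsf1b, the type 2 receptor found mainly on microglia and other immune cells, gave 8.82, 9.04, 8.87 and 8.92 against 8.88, 8.81, 8.70 and 8.80. Its groups overlapped, with a difference of 0.11 (95% confidence interval -0.02 to 0.25).

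In the gp130 family, Osmr was the one gene with an unadjusted p under 0.05. Osmr encodes the oncostatin M receptor chain that pairs with gp130, and its signals were 7.67, 8.11, 7.65 and 7.88 in the HDACi group and 7.43, 7.65, 7.67 and 7.58 in the vehicle group. HDACi replicate 2 was the highest array, and 3 of 4 HDACi arrays exceeded all vehicle arrays. Of these, HDACi replicate 1 was nearly level with vehicle replicate 3 (7.672 against 7.67). The difference was 0.24 (SE 0.10, 95% confidence interval 0.01 to 0.47), with an unadjusted limma p of 0.0398 and an adjusted p of 0.637, and the exact two-sided permutation test gave p = 0.0857. The call was lost without HDACi replicate 2 (difference 0.15, p 0.0888), HDACi replicate 4 (0.23, 0.0857), vehicle replicate 1 (0.19, 0.108) or vehicle replicate 4 (0.24, 0.0697). Its ligand Osm gave 7.86, 7.97, 8.02 and 7.96 against 7.99, 7.68, 8.15 and 8.18. Vehicle arrays lay on both sides of the HDACi arrays, and the difference was -0.05 (95% confidence interval -0.28 to 0.18).

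Il6st, the shared chain gp130, had the highest signal of the 72 members, at 11.55, 11.81, 11.50 and 11.62 in the HDACi group and 11.56, 11.56, 11.50 and 11.36 in the vehicle group. HDACi replicate 2 was highest and vehicle replicate 4 lowest, and the difference was 0.12 (95% confidence interval -0.05 to 0.29). Lifr, which binds LIF and pairs with gp130, ran the other way, at 10.16, 10.27, 10.18 and 10.20 against 10.39, 10.70, 10.23 and 10.25. For Lifr, 3 HDACi arrays lay below all vehicle arrays, with vehicle replicate 2 far above the others, and the difference was -0.19 (95% confidence interval -0.40 to 0.03, unadjusted limma p 0.0806). Without vehicle replicate 2 it was -0.08. Lif, the ligand released after nerve damage, gave 7.64, 7.52, 7.71 and 7.59 against 7.48, 7.46, 7.64 and 7.63, a difference of 0.06 (95% confidence interval -0.07 to 0.20).

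Il6 lay below the reference on every array, at 5.80, 5.98, 5.80 and 5.72 in the HDACi group and 5.86, 6.22, 5.88 and 6.10 in the vehicle group. For Il6, 3 of 4 HDACi arrays were lower than every vehicle array, and the difference of -0.19 was the lowest of the 72 members, with a 95% confidence interval of -0.39 to 0.01 and an unadjusted limma p of 0.0608. Il6r, the ligand-binding chain for IL-6, gave 8.49, 8.79, 8.61 and 8.61 against 8.68, 8.69, 8.50 and 8.39. Its groups overlapped, with a difference of 0.06 (95% confidence interval -0.13 to 0.25). Il11, its receptor Il11ra1 and the IL-27 receptor Il27ra differed by 0.03, 0.01 and -0.03.

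**Figure D4:**
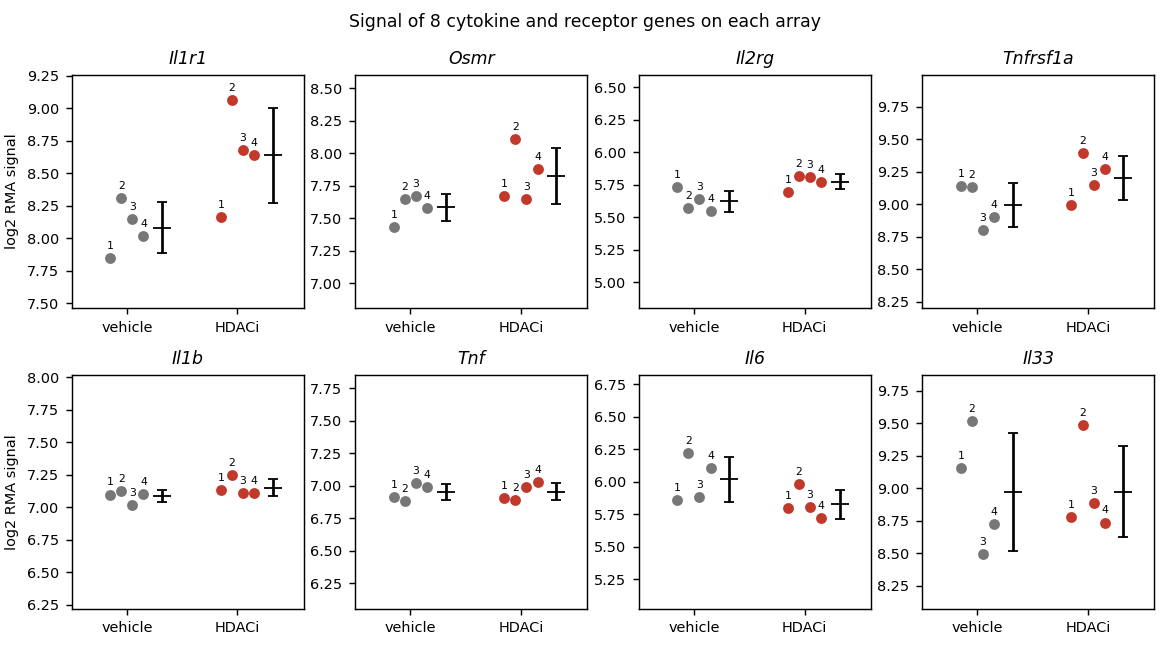
Log2 RMA signal (y axis; each panel spans the same height but has its own level) of 8 genes on each array, by group (x axis), with points numbered by replicate and bars giving the mean ± SD of 4 arrays. Il1r1 runs from 8.16 to 9.06 in the HDACi group and from 7.85 to 8.31 in the vehicle group, while the groups of Il1b, Tnf and Il33 overlap.

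Among the receptors of the common gamma chain and IL-4/IL-13 systems, 7 of 9 differences were above 0 (median 0.03), whereas 6 of the 7 ligands were below 0 (median -0.02). Il2rg, the common gamma chain itself, gave 5.70, 5.82, 5.81 and 5.77 in the HDACi group and 5.73, 5.57, 5.64 and 5.55 in the vehicle group. For Il2rg, 3 HDACi arrays were above all vehicle arrays, but the probe set lay below the reference on every array. Of 8 T and NK cell markers, 2 (Cd4 and Gzmb) lay above the reference, and Cd3d, Cd3e and Cd3g lay below it. The difference of Il2rg was 0.15 (SE 0.05), with an unadjusted limma p of 0.0171, an adjusted p of 0.61 and an exact two-sided permutation p of 0.0571. With each array left out in turn the unadjusted limma p stayed at or below 0.0465. Il4r, the receptor chain shared by IL-4 and IL-13, was well above the reference at 9.56, 9.67, 9.63 and 9.52 against 9.60, 9.48, 9.39 and 9.36. Its difference was 0.13 (95% confidence interval -0.0035 to 0.27, unadjusted limma p 0.0549), with vehicle replicate 1 among the HDACi arrays. Il13ra1, its partner for IL-13, gave 9.16, 9.39, 9.12 and 9.39 against 9.28, 9.38, 9.14 and 9.12, a difference of 0.03 (95% confidence interval -0.16 to 0.22). The groups overlapped over nearly all of their range. Il7r and Il2ra, named after their values were seen, differed by 0.12 (95% confidence interval -0.14 to 0.39) and -0.13 (-0.31 to 0.06). Of the ligands, Il9, also named after its values were seen, lay lowest at -0.14 (95% confidence interval -0.38 to 0.10) and Il4 highest at 0.09 (-0.05 to 0.23).

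IL-10 is the main anti-inflammatory interleukin of glia. Il10 was dim, at 5.28, 5.32, 5.46 and 5.35 in the HDACi group and 5.46, 5.33, 5.31 and 5.60 in the vehicle group. The groups overlapped, with a difference of -0.08 (95% confidence interval -0.23 to 0.08). Il10ra, its ligand-binding chain, gave 7.84, 7.98, 7.89 and 8.06 against 7.87, 7.99, 7.81 and 7.79, and Il10rb, the widely expressed accessory chain, 9.52, 9.73, 9.50 and 9.64 against 9.61, 9.69, 9.40 and 9.42. Their differences were 0.08 (95% confidence interval -0.06 to 0.22) and 0.07 (-0.11 to 0.25), with overlap in both. None of the 4 IL-10 family ligands lay above the reference, and Il20, Il22 and Il24 differed by between -0.11 and 0.07. Il20ra, named after its values were seen, differed by -0.14 (95% confidence interval -0.31 to 0.03) at a dim signal.

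The IL-17 family held the 1 member whose groups did not overlap. Il17f, a cytokine of T helper 17 cells, gave 5.50, 5.57, 5.59 and 5.58 in the HDACi group and 5.69, 5.65, 5.65 and 5.62 in the vehicle group, every HDACi array below every vehicle array. Among all genes 5.02% did not overlap, 3.6% with the HDACi group lower and 1.42% with it higher. The difference was -0.09 (SE 0.04) at a dim signal, with an unadjusted limma p of 0.0429, an adjusted p of 0.64 and a permutation p (exact, two-sided) of 0.0286, the smallest that 4 arrays against 4 can give. The unadjusted limma p passed 0.05 when any array other than HDACi replicate 3 or vehicle replicate 4 was left out, reaching 0.118 without HDACi replicate 1. Il17ra, the receptor chain shared by IL-17A and IL-17F and named after its values were seen, gave 8.75, 9.15, 8.92 and 9.06 against 8.94, 8.80, 8.63 and 8.62. Its difference was 0.22 (95% confidence interval -0.006 to 0.44, unadjusted limma p 0.0552), with HDACi replicates 1 and 3 within the vehicle range and replicates 2 and 4 above it. The remaining ligands (Il17a and Il17b) and receptors (Il17rb and Il17re) differed by 0.04 or less in size.

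The IL-12 family, IL-3 and IL-5 and Il34 showed no difference at an unadjusted p under 0.05. Il12a, named after its values were seen, differed by 0.11 (95% confidence interval -0.04 to 0.27), and the other 4 genes of the IL-12 family by between -0.02 and 0.10. Il3ra, a chain of the IL-3 receptor that was also named after its values were seen, had a difference of 0.13 (95% confidence interval -0.03 to 0.28), with 3 of 4 HDACi arrays above all vehicle arrays. Il34, a neuronal ligand of the microglial receptor CSF1R, gave 8.55, 8.55, 8.57 and 8.48 in the HDACi group and 8.35, 8.65, 8.45 and 8.53 in the vehicle group. The HDACi arrays lay within the vehicle range, with a difference of 0.04 (95% confidence interval -0.10 to 0.18).

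Between the 2 kinds of member, 23 of 36 receptors and binding proteins had a difference above 0 (median 0.03), as did 16 of 36 ligands and antagonists (median -0.0063), against 42.1% of all genes. Above the reference, 19 of 26 receptors (73.1%; median 0.06) and 9 of 15 ligands (60%; median 0.0019) lay above 0, against 43.9% of all genes. These are counts over genes that share 8 arrays and were not tested. The members also spread more between arrays than most genes: the median residual SD of a member was 0.12 on the log2 scale, against 0.09 for all genes, and the median SE of a difference was 0.08, against 0.06.

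Genes downstream of these receptors were read from fixed lists, with several results for them already known from these arrays. Of 23 measured transducers of IL-1 and TNF signals, Irak3 stood higher at an unadjusted p under 0.05 and none lower, and the list's median was 0.01. For this and the lists that follow, the share called among all genes was 7.75%. Irak3 encodes IRAK-M, a brake on IL-1 and Toll-like receptor signalling, and gave 8.93, 9.26, 8.83 and 9.12 in the HDACi group and 8.76, 8.45, 8.74 and 8.50 in the vehicle group. All its HDACi arrays lay above all vehicle arrays, as for 1.42% of all genes (5.02% without overlap in either direction), and the difference was 0.42 (SE 0.11), with an unadjusted limma p of 0.00294 and an adjusted p of 0.61. Of 20 JAK-STAT transducers and feedback genes, 1 was higher (Stat5a, 0.13) and 1 lower (Stat4, -0.16 at a dim signal), and the median was 0.04. Among 10 genes that process IL-1 family and TNF precursors none was called at that threshold by limma in either direction (median 0.03). The same threshold marked 2 of 19 further cytokines and receptor chains, Ifng higher by 0.24 and Lta lower by 0.10, both below the reference.

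Of 26 measured genes that IL-1, TNF or gp130 cytokines are known to induce, 21 had a difference above 0 (median 0.10), against 42.1% of all genes. At an unadjusted p under 0.05 by limma, 6 stood higher and none lower. Among all genes 2.79% were called higher and 7.75% in either direction. The list was drawn up with the results for Cp and Lbp already known. The study had also reported higher Mt2a in drug-treated cord by qRT-PCR. The list's count is therefore not independent evidence. Lbp, an acute-phase protein that carries lipopolysaccharide, was higher by 1.27 (SE 0.28), Cp, which encodes ceruloplasmin, by 0.86 (SE 0.13) and Mt2A, a metallothionein, by 0.53 (SE 0.11). Icam1, an adhesion molecule of endothelium, was higher by 0.28 (SE 0.09), Ptgs2, which encodes cyclooxygenase-2, by 0.37 (SE 0.12) and Junb, a subunit of AP-1, by 0.26 (SE 0.07). Each of these 6 differences had an adjusted p of 0.61. The largest difference below 0 in the list was that of Serpina3n, an acute-phase protease inhibitor, at -1.17 (SE 0.85, unadjusted limma p 0.199), with signals from 6.24 to 9.34 in the HDACi group and from 6.50 to 9.86 in the vehicle group. Icam1, Ptgs2, Junb and Serpina3n were named after their values were seen.

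Cell type markers gave the setting for these values. The 7 microglial markers, all above the reference, had array means of 9.92 to 10.20 in the HDACi group and 9.82 to 10.20 in the vehicle group, and 6 astrocyte markers 11.76 to 11.91 and 11.68 to 11.85. As for the labelled tissue, 7 neuronal markers ran from 11.08 to 11.44 and from 11.23 to 11.39, and 5 dorsal horn neuropeptide genes were all above the reference. Markers of T and NK cells lay above the reference for 2 of 8 genes, of neutrophils for 2 of 5, of mast cells for 1 of 4 and of B cells for 1 of 2. Of the macrophage markers, 5 of 6 were above it, and their array means were 7.02 to 7.50 in the HDACi group and 6.93 to 7.22 in the vehicle group. All 6 macrophage markers had a difference above 0 (median 0.10). So did 6 of 7 microglial, 5 of 6 astrocyte, 5 of 6 endothelial and mural and all 5 dorsal horn markers. Of the neuronal markers 1 of 7 and of the neutrophil markers 1 of 5 did, against 42.1% of all genes. F13a1 was higher by 0.54 (SE 0.15, unadjusted limma p 0.00557, adjusted p 0.61), and the other macrophage markers by 0.05 to 0.18. Kit, of the mast cell list, was higher by 0.24 (unadjusted limma p 0.0117, adjusted p 0.61) without overlap between the groups. Among all genes 5.02% did not overlap, 1.42% with the HDACi group higher. Of the 4 mast cell markers, 2 had a difference above 0 and 2 below (median 0.01), and only Kit lay above the reference. Cd4, of the T and NK cell list, was higher by 0.21 (unadjusted limma p 0.0352, adjusted p 0.628). Cd4 and Gzmb were the 2 genes of that list above the reference, and Cd3d, Cd3e and Cd3g lay below it. Of that list's 8 genes, 4 had a difference above 0 and 4 below (median 0.02). Sensory neuron and root markers ran from 8.03 to 9.26 in the HDACi group and from 8.16 to 9.80 in the vehicle group. Of their 5 genes, 1 had a difference above 0 and 4 below (median -0.06). Calca had the lowest difference of all genes, at -1.65 (SE 0.98, unadjusted limma p 0.125, adjusted p 0.714). Its signals ran from 6.25 to 9.24 in the HDACi group and from 6.39 to 10.86 in the vehicle group. The 2 measured motor neuron markers were both lower at an unadjusted p under 0.05 by limma, as were 4.96% of all genes. Slc5a7 was lower by 0.75 (adjusted p 0.628), with vehicle replicates 3 and 4 within the HDACi range. Isl1, which was not above the reference, was lower by 0.23 (adjusted p 0.64). F13a1, Kit, Cd4, Gzmb, Cd3d, Cd3e, Cd3g, Calca, Slc5a7 and Isl1 were named after their values were seen. The part of cell content in the members' values was not tested. Across the 8 arrays, correlations over all genes were 0.9921 to 0.9977.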

How the data were processed

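RNA of the dorsal ipsilateral spinal cord was measured in 4 HDACi and 4 vehicle samples on Affymetrix Rat Gene 1.0 ST arrays, and sample titles gave the group and number of each array. Deposited signals are log2 values that the authors made by RMA (package oligo), that is, background correction, quantile normalization and 1 summary per probe set. The study's methods state 4 biological replicates per group. RMA signals are relative and compress differences between dim probes, and the number of arrays limits the precision.

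Of 29214 probe sets, 15310 had 1 platform symbol, 323 had several and 13581 were not listed. Probe sets with 1 symbol were averaged into 14506 genes, and a RefSeq table of GRCr8 supplied current symbols for their Entrez numbers. A probe set that Il13ra1 shares with a pseudogene was left out. HDACi and vehicle were compared gene by gene in limma 3.58.1 (lmFit, eBayes; R 4.3.3), two-sided and without a block, with 6 residual and 3.36 prior degrees of freedom. Benjamini-Hochberg adjustment covered all genes. Exact permutation tests used scipy 1.17.1 in Python 3.11.15. The scripts were tested on simulated data. Promoter windows came from RefSeq (GRCr8); proteins were not used here.

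The members and lists were chosen with earlier results of these data known. Named with values on every array were members with an unadjusted p under 0.05 or without overlap, 23 fixed members, and the 5 with the highest mean signal (Il6st, Lifr, Il1rap, Il10rb and Il4r). Of each pathway list at most 3 genes with the smallest p were named. Genes outside the rule are given as named after their values were seen. Replicate numbers were not treated as pairs in the main comparison, and the labels do not state whether they mark pairs.

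Alternatives were eBayes with trend, with robust settings or with unmoderated variances, filters at the median signal and at the olfactory receptor reference, a further quantile normalization, centring of each array, the brightest probe set per gene, all probe sets, members by updated symbol, array weights, the replicate block and each array left out.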

Additional observations from a re-analysis of the deposited data

Results flagged for a closer look

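Il1rapl1, an accessory protein of the IL-1 receptor family found at synapses, had 1 vehicle array apart from the others. Vehicle replicate 4 was at 8.24 on the log2 scale, while the other vehicle arrays lay between 7.95 and 7.99, a gap of 0.87 of the group's range. Of 76 groups of 4 arrays examined (38 genes in both groups), this was 1, and chance alone marks about 5% of such groups. The HDACi arrays lay between 7.80 and 8.08. The difference of Il1rapl1, HDACi minus vehicle, was -0.11 (95% confidence interval -0.29 to 0.07), and without vehicle replicate 4 it was -0.04.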

How the results depend on the processing

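No member passed adjustment under any alternative: the smallest adjusted p among the members, by limma, was between 0.301 (replicate block) and 0.901 (without HDACi replicate 4). Il1r1 had an unadjusted p under 0.05 in all 20 alternatives that kept it and were fitted, and was left out by the filter at the median signal; the count of other members moved with the setting. Against 3 higher and 3 lower in the design as reported, genes above the median signal gave 1 higher (Il4r) and 0 lower among 12 members, with a median difference of 0.0909. Genes above the olfactory receptor reference gave 2 higher and 0 lower among 41, with a median of 0.0402, fewer members being tested in both. Further quantile normalization and centring each gave 6 higher, which added Il17ra, Il4r and Tnfrsf1a. Leaving out each array in turn gave 2 to 7 higher (7 without HDACi replicate 1, 6 without vehicle replicate 1) and 1 to 6 lower (1 without HDACi replicate 1 or 4, 6 without vehicle replicate 2). Without both replicates numbered 2, an alternative chosen after seeing the data, 2 were higher and 5 lower. With the replicate number as a block, 5 were higher and 4 lower. Il1r1 then differed by 0.55 (SE 0.08, unadjusted limma p 1.45e-04), and the smallest adjusted p of any member was 0.301. Deviations of same-numbered arrays correlated at -0.27, 0.36, 0.04 and 0.06, and only the arrays numbered 2 correlated best with their own number. These correlations cannot show whether same-numbered samples were paired, which the labels do not state. The cause of the shifts in the counts was not tested.

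Differences near 0 changed sign with 1 array left out, over these ranges: Il13ra1 -0.0096 to 0.0831, Il1rn -0.17 to 0.11, Il33 -0.17 to 0.18, Il34 -0.0086 to 0.0927, Osm -0.16 to 0.0112, Tnf -0.0232 to 0.0248 and Il16 -0.11 to 0.34. With array weights, Il1rn was at -0.0785 and Il33 at -0.0328. Probe signal limits what dim members can show: 31 of 72 were not above the reference, and a lack of a call there does not show that their mRNA was alike.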
